A study of Mus musculus with 6 samples.

Results

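The genes described here encode the subunits of the 4 respiratory chain complexes and of the ATP synthase, which is counted as complex V, in mouse small intestinal organoids carrying a doxycycline-inducible reprogramming cassette. They were chosen by symbol: names beginning Ndufa, Ndufb, Ndufc, Ndufs or Ndufv with a number, Sdha to Sdhd, all Uqcr genes, Cox4 to Cox8 genes, all Atp5 genes, and the mitochondrially encoded mt-Nd, mt-Co, mt-Cytb and mt-Atp genes. Of 105 identifiers with such names, 8 were annotated pseudogenes and were left out, which gave 97 members among the 55416 gene identifiers in the tables. Nuclear DNA encodes 84 of them and mitochondrial DNA 13. A filter on low counts left 92 members for testing, namely 79 nuclear and all 13 mitochondrially encoded.

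The organoids came from mice aged 4 to 8 weeks and were grown in IntestiCult medium. All 3 groups carried the same genotype, Tg/Tg for Rosa26-rtTA and likewise Tg/Tg for Col1A1-TetO-OSKM, in which a doxycycline-activated protein made from the Rosa26 locus switches on a cassette for Oct4, Sox2, Klf4 and Myc at Col1a1. The control group received no doxycycline per the labels, and the other two received 0.1 or 0.5 µg/ml doxycycline for 3 days, so cassette expression and exposure to doxycycline itself cannot be told apart. There were 2 poly-A RNA libraries in each group, described by the submitters as biological replicates with no statement of separate animals or cultures, so p-values measure the spread between these libraries only. Library totals ran from 45289760 to 72547738 expected counts, and Pou5f1 (Oct4) rose from 0.32 and 0.14 TPM in control to 132 and 140 TPM at 0.1 µg/ml and to 458 and 488 TPM at 0.5 µg/ml, in the order the labels give.

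Complexes I and II take electrons from NADH and succinate, complex III passes them to cytochrome c, and complex IV hands them to oxygen. Complexes I, III and IV pump protons as they do so, and the ATP synthase uses the resulting gradient to make ATP. Most subunits are translated in the cytosol from nuclear genes and imported, while a small set of hydrophobic subunits is transcribed and translated inside the mitochondrion, so that complexes I, III, IV and V need products of both genomes. Crypt stem cells of the intestine are known for high mitochondrial activity, and reprogramming of somatic cells towards pluripotency is known for a move from oxidative metabolism towards glycolysis.

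Levels of the nuclear members spanned a wide range. In TPM, a share of all transcripts corrected for gene length, the control means of the 79 tested nuclear members had a median of 286 TPM. The highest was Atp5b, the catalytic beta subunit of the ATP synthase, at 2992 and 2709 TPM in the control libraries, and the lowest was the heart and muscle isoform Cox6a2, at 1.43 and 0.99 TPM. Median levels were 158 TPM for the 7 nuclear core subunits of complex I, 197 TPM for its 28 accessory subunits and 192 TPM for complex II. They were 564 TPM for complex III, 576 TPM for the tested members of complex IV and 526 TPM for complex V. Fold changes below come from counts scaled by TMM, a library-size scaling on the genes that change least, while levels are given in TPM, so the ratio of 2 TPM values differs from the fitted fold change.

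At 0.5 µg/ml against control, transcripts of the nuclear subunits fell by small amounts across all complexes. Of 79 tested nuclear members, 48 fell (60.8%), 9 rose (11.4%) and 22 did not pass the test at an adjusted p of 0.05. Among all 16975 tested genes, 67.5% changed, with 34.4% called higher and 33.1% called lower, so the nuclear members' share of falls was above the background and their share of rises below it. Their median log2 fold change was -0.16, a decrease of 10.4%, beside a median of 0.00 over all tested genes. Changes of more than 2-fold occurred in 2 members, Cox6a2 and Atp5s. The 13 mitochondrially encoded members had 2 rises, 2 falls and a median log2 fold change of 0.01.

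**Figure D1:**
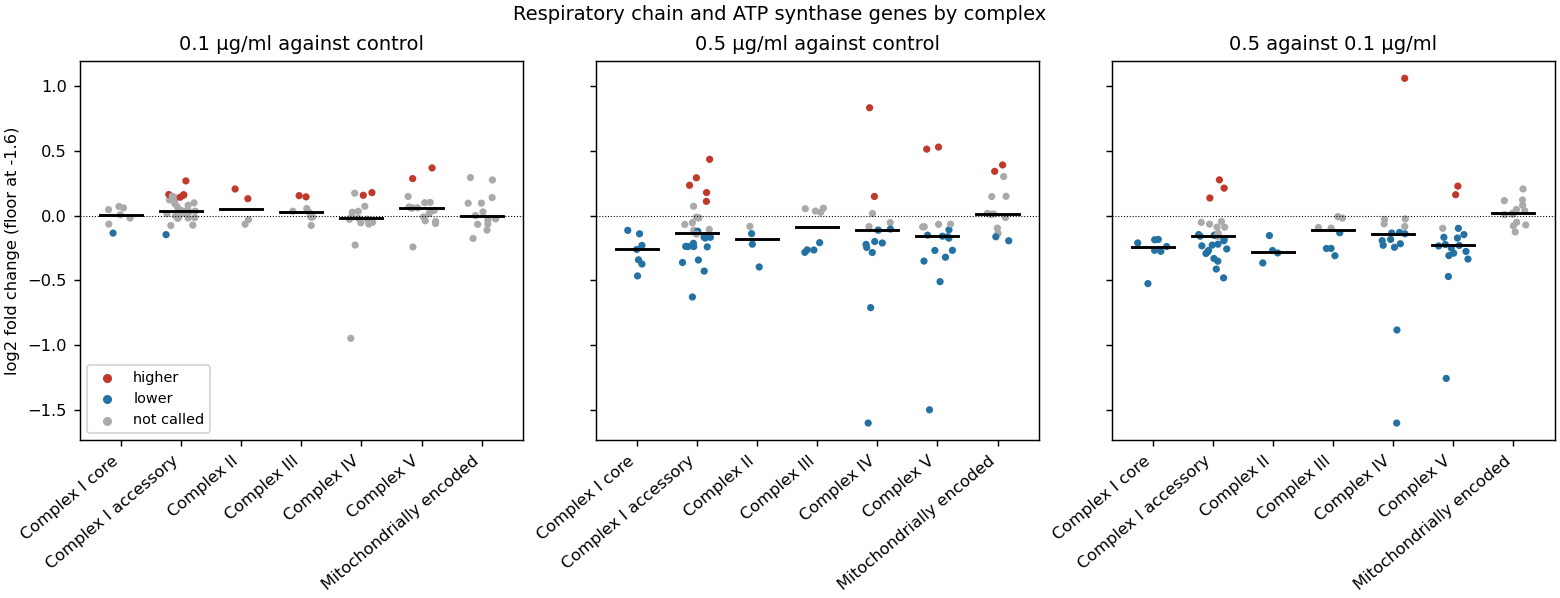
Each point is a tested member, with its fitted log2 fold change on the vertical axis (a value beyond -1.6 is drawn at -1.6), its complex on the horizontal axis, its call by colour and the median as a black bar. At 0.5 µg/ml the medians of all 6 nuclear groups lie below 0, from -0.26 for the complex I core to -0.09 for complex III, and the mitochondrially encoded median lies at 0.01.

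At 0.1 µg/ml the nuclear members did not show this fall. Against control, 13 of 79 rose (16.5%), 2 fell (2.53%) and 64 did not pass the test, where 34.6% of all tested genes changed, 20.8% higher and 13.8% lower. The nuclear median was 0.03 and the median of all tested genes 0.02. The count of rises depended on single libraries and on scaling: leaving out a library gave 3 to 9 rises (3 without the first 0.1 µg/ml library, 4 and 5 without the first and the second control library, 6 and 7 without the first and the second 0.5 µg/ml library), and upper-quartile scaling gave 6 rises and a median of -0.01. No mitochondrially encoded member passed edgeR's test at this dose, and leaving out libraries gave 0 to 1 rises and 0 to 3 falls, the 3 falls without the second control library.

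The doses were also compared directly. From 0.1 to 0.5 µg/ml, 56 nuclear members fell (70.9%) and 6 rose (7.59%), where 58.9% of all tested genes changed, 29.8% higher and 29.1% lower. The nuclear median was -0.19, against -0.02 over all tested genes. This comparison shares its 0.5 µg/ml libraries with the one against control.

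**Figure D2:**
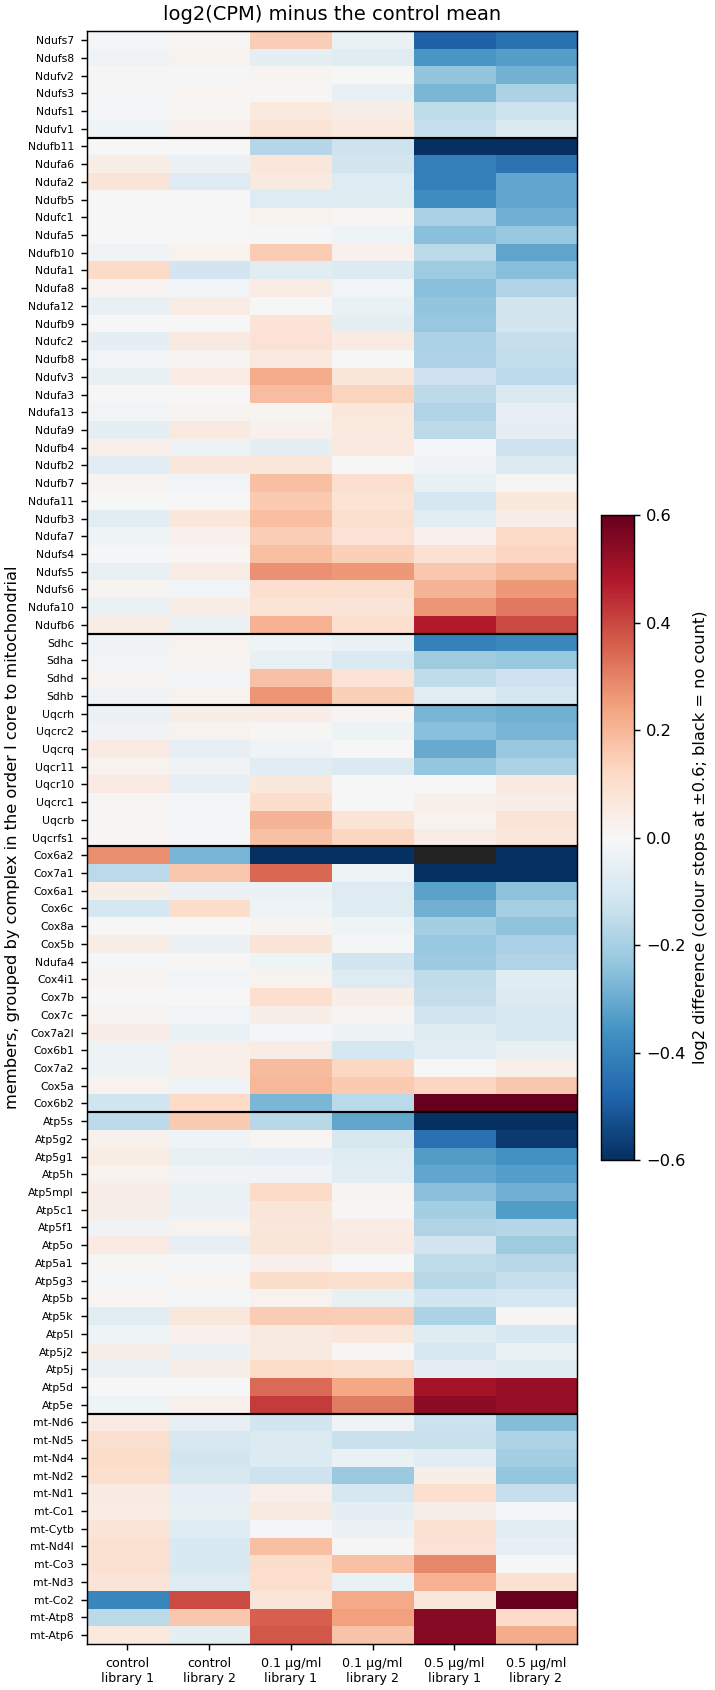
Rows are 91 of the tested members, grouped by complex and ordered within it by the change at 0.5 µg/ml, columns are the 6 libraries, and colour is the log2 of TMM-scaled CPM, counts relative to the library total, minus the control mean. Most nuclear rows are blue in both 0.5 µg/ml libraries and near white or light red at 0.1 µg/ml, and the rows of Ndufb6, Cox6b2, Atp5d and Atp5e are red in both 0.5 µg/ml libraries.

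The 7 nuclear core subunits of complex I, most of which carry its redox centres or line the quinone site, all fell at 0.5 µg/ml, with a median log2 fold change of -0.26. Over all tested genes 33.1% fell. The mitochondrially encoded subunits of complex I, described below, are not among these 7. Only mt-Nd5 and mt-Nd6 of them passed as falls. Ndufs7, which holds the last iron-sulphur cluster before ubiquinone, stood at 178 and 184 TPM in control, 195 and 174 TPM at 0.1 µg/ml and 120 and 125 TPM at 0.5 µg/ml. Its fitted log2 fold change was -0.47 (SE 0.06, adjusted p = 8.3e-05), a decrease of 27.6%. Both 0.5 µg/ml libraries lay below the 4 others, which overlapped. Among other core subunits the falls were 0.34 for Ndufs8, another iron-sulphur subunit, 0.26 for Ndufv2, 0.23 for Ndufs3, 0.14 for Ndufs1 and 0.11 for Ndufv1, the subunit that binds NADH. The call of Ndufv1 (adjusted p = 0.038) was lost with DESeq2 (0.099), with every gene of at least 1 count kept (0.051) and with a replicate block (0.053). It was also lost without the second control library (log2 fold change -0.12) and without the first 0.5 µg/ml library (-0.11).

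Of the 28 accessory subunits of complex I, which surround the core and are needed for its assembly or stability, 14 fell (50%) and 5 rose (17.9%) at 0.5 µg/ml. Over all tested genes 33.1% fell and 34.4% rose. The median of the accessory subunits was -0.13. Ndufb11, in the membrane arm, fell most: it stood at 199 and 204 TPM in control, 173 and 182 TPM at 0.1 µg/ml and 118 and 126 TPM at 0.5 µg/ml, with no overlap between any 2 groups. Its log2 fold change was -0.15 at 0.1 µg/ml (SE 0.04, adjusted p = 0.023, lost without the first 0.1 µg/ml library at 0.12) and -0.63 at 0.5 µg/ml (SE 0.04, adjusted p = 7.5e-07). Ndufa6, a matrix-arm subunit that binds the acyl carrier protein, went from 492 and 470 TPM in control to 336 TPM in both 0.5 µg/ml libraries, a log2 fold change of -0.43 (SE 0.06, adjusted p = 0.00013), and was at 484 and 436 TPM at 0.1 µg/ml.

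The 5 accessory subunits that rose at 0.5 µg/ml were Ndufb6, Ndufa10, Ndufs6, Ndufs5 and Ndufs4. Ndufb6, a membrane-arm subunit, measured 167 and 161 TPM in control, 183 and 173 TPM at 0.1 µg/ml and 211 and 205 TPM at 0.5 µg/ml. The 3 groups did not overlap, and the log2 fold change was 0.43 at 0.5 µg/ml (SE 0.05, adjusted p = 6.6e-05). At 0.1 µg/ml it was 0.16, with an adjusted p of 0.0498 that passed in 3 of 16 alternative analyses. Ndufa10 rose by 0.29 (lost with limma, at 0.056 to 0.095) and Ndufs6, a zinc-binding subunit, by 0.23 on the log2 scale. Ndufs5 rose at both doses, by 0.27 at 0.1 µg/ml and by 0.18 at 0.5 µg/ml. The latter call was lost with DESeq2 (adjusted p = 0.0501) and upper-quartile scaling (0.19). It was also lost when the first control library was left out (log2 fold change 0.13) and without the first or the second 0.5 µg/ml library (0.18 and 0.14). Ndufs4, which is needed late in assembly, had the weakest call (log2 fold change 0.11, adjusted p = 0.048), which was lost on leaving out any library, and its direction turned to -0.03 when TPM values were tested in place of counts. Between 28.9 and 32.1% of the reads assigned to Ndufs5 and its processed pseudogene BC002163 together went to the pseudogene, and Ndufb6 overlaps Smim27 on the opposite strand, so these 2 genes' counts are uncertain.

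Complex II, succinate dehydrogenase, has 4 subunits, all nuclear. Sdhc, a membrane anchor, stood at 160 and 169 TPM in control, 151 TPM in both 0.1 µg/ml libraries and 111 and 118 TPM at 0.5 µg/ml, and fell by 0.40 on the log2 scale at 0.5 µg/ml (SE 0.04, adjusted p = 1.2e-05). The catalytic flavoprotein Sdha fell by 0.22 (adjusted p = 0.00054), and the second anchor Sdhd by 0.14 (adjusted p = 0.019, lost without the first control library at 0.072 and without the first 0.5 µg/ml library at 0.067). Sdhb, the iron-sulphur subunit, did not pass (-0.08, adjusted p = 0.16). At 0.1 µg/ml Sdhb rose by 0.21 (adjusted p = 0.010), a call lost without the first control library (0.072), without the first 0.1 µg/ml library (0.13) and with limma on TPM (0.11 to 0.13). Sdhd rose by 0.13 (adjusted p = 0.047), but its call held in only 2 of 16 alternative analyses and reached 0.40 without the first 0.1 µg/ml library. From 0.1 to 0.5 µg/ml all 4 fell, by 0.15 to 0.37, with the call of Sdha lost without the first 0.1 µg/ml library (0.060).

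Complex III split evenly: at 0.5 µg/ml 50% of its 8 subunits fell and 0% rose, against 33.1% and 34.4% over all tested genes. The 4 subunits that fell at 0.5 µg/ml were Uqcrh, the hinge protein near cytochrome c1 (-0.28), Uqcrc2, a core protein (-0.27), Uqcrq (-0.26) and Uqcr11 (-0.21). Uqcrh measured 759 and 804 TPM in control, 774 and 773 TPM at 0.1 µg/ml and 601 and 609 TPM at 0.5 µg/ml, so both 0.5 µg/ml libraries lay below the 4 others (SE 0.04, adjusted p = 0.00018). The other 4, Uqcrc1, Uqcr10, Uqcrb and the Rieske iron-sulphur protein Uqcrfs1, had log2 fold changes from 0.03 to 0.06 and did not pass. Uqcrb (0.14, adjusted p = 0.048) and Uqcrfs1 (0.15, adjusted p = 0.014) rose at 0.1 µg/ml. The call of Uqcrb held in 3 of 16 alternative analyses, and that of Uqcrfs1 was lost without the first or the second control library (0.058 and 0.10), without the first 0.1 µg/ml library (0.14) and with limma (0.12 to 0.20).

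Complex IV, cytochrome c oxidase, has 19 nuclear members here, with Ndufa4, which was first assigned to complex I. Among the 15 tested, 9 fell (60%) and 2 rose (13.3%) at 0.5 µg/ml, against 33.1% and 34.4% over all tested genes. Cox6a1, the common form of its subunit, fell by 0.28 on the log2 scale (SE 0.05, adjusted p = 0.00032), from 956 and 916 TPM in control to 697 and 750 TPM at 0.5 µg/ml, and was at 880 and 870 TPM at 0.1 µg/ml. Cox8a, at 1257 and 1259 TPM in control and 1018 and 1012 TPM at 0.5 µg/ml, fell by 0.22 (adjusted p = 0.00057). Cox4i1 and Cox6b1, the common forms of 2 other subunits, did not pass (-0.11, adjusted p = 0.055, and -0.05, adjusted p = 0.38). Cox4i1 passed in 10 of 16 alternative analyses, among them without the second control library (0.035) and without the second 0.5 µg/ml library (0.030). Cox5a, which sits on the matrix side of the complex, rose by 0.18 at 0.1 µg/ml (adjusted p = 0.0083) and 0.15 at 0.5 µg/ml (adjusted p = 0.0096), and both calls were lost in some alternatives. The 0.1 µg/ml call was lost without the second control library (0.078), without the first 0.1 µg/ml library (0.091) and with limma (0.078 to 0.15), and the 0.5 µg/ml call without the second control library (0.12), without the second 0.5 µg/ml library (0.12), with upper-quartile scaling (0.22) and with limma (0.20 to 0.35).

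Several complex IV subunits exist in isoforms restricted to other tissues. Cox7a1, the heart and muscle form, was present at 47.1 and 58.1 TPM in control, 63.7 and 49.5 TPM at 0.1 µg/ml and 30.6 and 30.7 TPM at 0.5 µg/ml, and fell at 0.5 µg/ml (log2 fold change -0.71, SE 0.15, adjusted p = 0.0022). Its common partner Cox7a2, at 387 and 408 TPM in control, had a log2 fold change of 0.02 (adjusted p = 0.76). Cox6a2, also a heart and muscle form, had 29 and 20 counts in control, 19 and 12 counts at the lower dose and 0 and 1 counts at the higher. The 49 control counts against 1 gave a ratio of 47.2 on scaled counts, with an exact 95% interval of 8.08 to 1901 that covers counting error only. Its call at 0.5 µg/ml had an adjusted p of 0.00011, at a level of about 1 TPM or less in nearly all libraries. Cox6b2, known from testis, rose instead, from 6.27 and 7.53 TPM in control and 5.54 and 5.88 TPM at 0.1 µg/ml to 11.2 and 11.3 TPM at 0.5 µg/ml (log2 fold change 0.83, SE 0.16, adjusted p = 0.0013). Cox4i2 had no counts in the 4 control and 0.1 µg/ml libraries and 2 and 1 counts at 0.5 µg/ml, and Cox7b2, Cox8b and Cox8c had none in any library. These 4, with a second Atp5o identifier at 0 in every library, are the 5 members that were not tested. Cox7a2l, which joins complexes III and IV in supercomplexes, did not pass (-0.08, adjusted p = 0.10), although it did without the second control library (-0.15, adjusted p = 0.023), and 12.97 to 14.16% of the reads shared with its pseudogene Gm6969 went to the pseudogene.

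**Figure D3:**
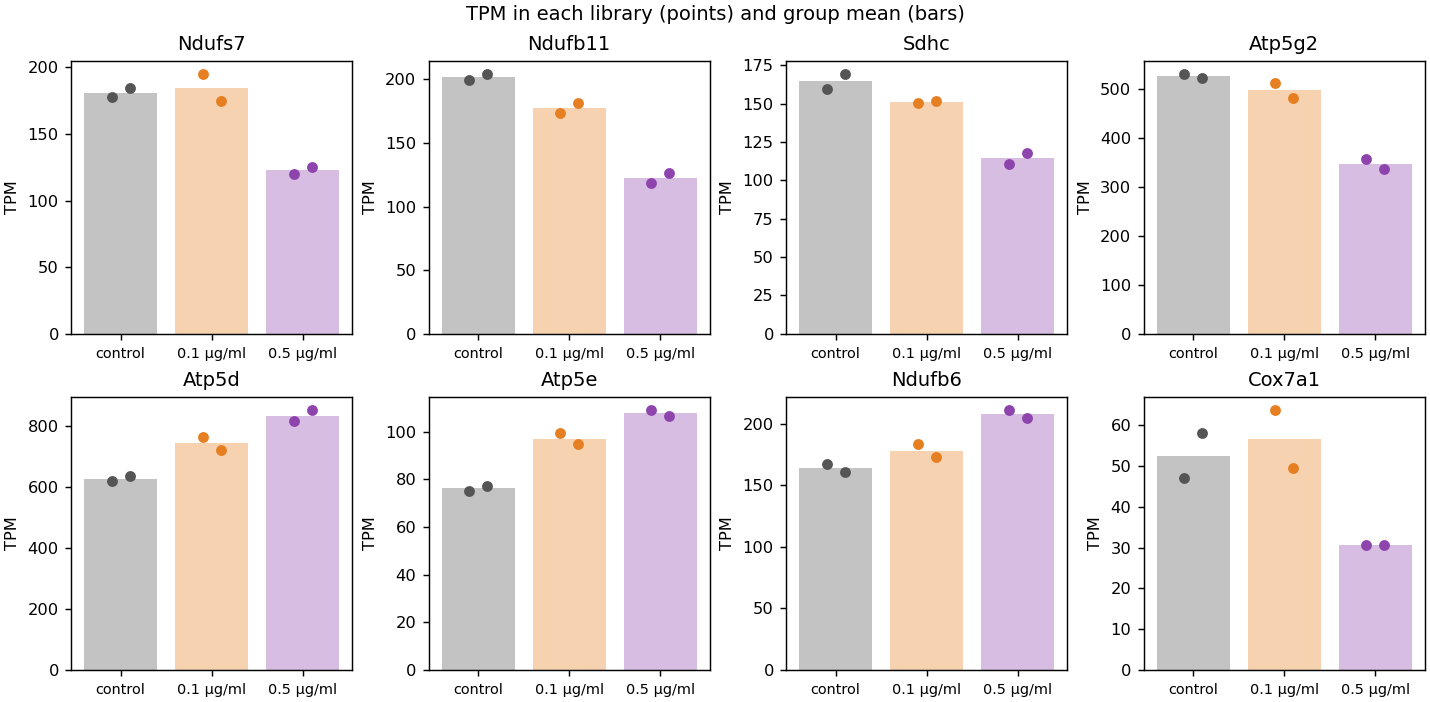
TPM of 8 members by group, with a point for each library and a bar for the mean of the 2 libraries. Ndufs7, Ndufb11, Sdhc, Atp5g2 and Cox7a1 are lowest in both 0.5 µg/ml libraries, and Atp5d, Atp5e and Ndufb6 are highest there. The 0.1 µg/ml libraries lie in between for Atp5d, Atp5e and Ndufb6, and overlap control for Ndufs7 and Cox7a1.

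In the ATP synthase, 11 of 17 tested members fell (64.7%) and 2 rose (11.8%) at 0.5 µg/ml, against 33.1% and 34.4% over all tested genes. The 2 members that rose were both small subunits of the central stalk that turns inside the catalytic head. Atp5d, its delta subunit, stood at 621 and 636 TPM in control, 767 and 723 TPM at 0.1 µg/ml and 818 and 854 TPM at 0.5 µg/ml. Its log2 fold change was 0.29 at 0.1 µg/ml (SE 0.04, adjusted p = 0.00082), 0.51 at 0.5 µg/ml (SE 0.04, adjusted p = 3.9e-06) and 0.23 between the doses (adjusted p = 0.0015, lost with limma at 0.057 to 0.072). Atp5e, the epsilon subunit, measured 75.2 and 77.4 TPM, then 99.5 and 94.6 TPM, then 109 and 107 TPM, with log2 fold changes of 0.37 (adjusted p = 0.0018) and 0.53 (adjusted p = 5e-05) against control. In neither gene did any 2 groups overlap. The rise of Atp5e between the doses (0.16, adjusted p = 0.049) was lost with DESeq2 (0.099), upper-quartile scaling (0.16) and every gene of at least 1 count kept (0.075). The 2 groups alone (0.066), a replicate block (0.071) and limma on log2(TPM + 1) and log2(TPM + 0.1) (0.068 and 0.078) also lost it. So did leaving out the second control library (log2 fold change 0.15), the second 0.1 µg/ml library (0.11) or the first or second 0.5 µg/ml library (0.15 and 0.17). Atp5c1, the gamma subunit that forms the rest of the central stalk, fell by 0.27 at 0.5 µg/ml (SE 0.05, adjusted p = 0.0012), from 445 and 434 TPM to 352 and 331 TPM.

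The catalytic subunits Atp5a1 and Atp5b fell by 0.16 and 0.11 on the log2 scale. Among the 3 genes for subunit c, which forms the rotating ring in the membrane and whose mature protein is the same from each gene, Atp5g2 fell by 0.51 (SE 0.05, adjusted p = 2.1e-05), Atp5g1 by 0.35 (adjusted p = 6e-05) and Atp5g3 by 0.15 (adjusted p = 0.0045). Their levels ran in another order: Atp5g3 was highest, at 1080 and 1114 TPM in control, and Atp5g2 (530 and 522 TPM) and Atp5g1 (512 and 486 TPM) were close. At 0.5 µg/ml Atp5g2 stood at 357 and 336 TPM, Atp5g1 at 371 TPM in both libraries and Atp5g3 at 907 and 948 TPM, and at 0.1 µg/ml none of the 3 passed the test against control. Atp5g2 shares sequence with the transcribed pseudogene Gm10175, to which 10.39 to 13.98% of their joint reads were assigned. Of the peripheral stalk, Atp5h fell by 0.32, Atp5f1 by 0.17 and Atp5o by 0.16, the last call being lost without the first control library (0.10) and without the second 0.5 µg/ml library (0.090), while Atp5j did not pass (-0.07, adjusted p = 0.18). Atp5s, known as coupling factor B, had the largest fall of a member with more than 100 counts in every library: 402 and 507 counts in control, 586 and 359 counts at the lower dose and 136 and 174 counts at the higher, or 11.7 and 16.4, 10.04 and 10.57, and 4.81 and 4.85 TPM (log2 fold change -1.50, SE 0.13, adjusted p = 5.6e-06).

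Across the 79 tested nuclear members, the control level and the change at 0.5 µg/ml had a Spearman rho of -0.07, a description over genes that share the same 6 libraries. Falls occurred near both ends of the range of levels, in Atp5b and in Atp5s.

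Promoters of the nuclear members were searched for short strings bound by factors known to act on respiratory genes. Promoter sequence, from 250 bases before to 50 after the start in RefSeq on GRCm38.p6, was matched for 68 of 83 nuclear symbols. The palindromic NRF1 core site occurred in 5 of them (7.35%), against 1.07% of the 27025 genes with a promoter in the table and 1.47% of the 17492 protein-coding ones, the closer background. The ETS string CCGGAAG of GABP occurred in 16 (23.5%, against 9.93% of all and 12.9% of protein-coding genes). The YY1 string AAGATGGC occurred in 10 (14.7%, against 3.19 and 3.57%), and the GC box GGGCGGG in 24 (35.3%, against 27.9 and 36.9%), which is above the share of all genes and below that of protein-coding genes. For factors of the cassette, the E-box CACGTG bound by Myc was in 6 (8.82%, against 8.09 and 8.91%) and the octamer ATGCAAAT bound by Oct4 in 1, Ndufs4 (1.47%, against 1.97 and 1.90%). All strings were searched on both strands, and in no promoter shown do 2 marked strings overlap. Among members with a matched promoter, the NRF1 string was in 2 of 36 that fell at 0.5 µg/ml, 0 of 9 that rose and 3 of 20 that did not pass. In the same order, the ETS string was in 8, 2 and 6, the YY1 string in 5, 2 and 3, and the E-box in 4, 0 and 2. A match describes the letters in this window and is no evidence of binding.

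The following 4 promoters belong to 2 members that fell and 2 that rose, and all 4 hold such strings. Capitals mark the matches. Ndufb11 and Cox7a1, which fell, and Atp5d and Cox5a, which rose, had no match in this window, so the 4 shown do not stand for their groups. Atp5g2 (chr15:102670998-102671297, minus strand) has the NRF1 palindrome and a GC box read from the other strand. Ndufs7 (chr10:80249199-80249498, plus strand) has the YY1 string at its 3′ end. Atp5e (chr2:174464052-174464351, minus strand) and Ndufb6 (chr4:40279372-40279671, minus strand) each have the ETS string, read from the other strand, and GC boxes, 2 in Atp5e and 1 in Ndufb6.
Atp5g2: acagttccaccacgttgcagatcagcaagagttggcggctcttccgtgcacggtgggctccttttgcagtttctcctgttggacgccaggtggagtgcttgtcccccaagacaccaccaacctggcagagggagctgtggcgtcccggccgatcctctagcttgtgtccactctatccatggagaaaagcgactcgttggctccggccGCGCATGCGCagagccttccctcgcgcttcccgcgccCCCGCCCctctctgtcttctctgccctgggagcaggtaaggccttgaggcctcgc
Ndufs7: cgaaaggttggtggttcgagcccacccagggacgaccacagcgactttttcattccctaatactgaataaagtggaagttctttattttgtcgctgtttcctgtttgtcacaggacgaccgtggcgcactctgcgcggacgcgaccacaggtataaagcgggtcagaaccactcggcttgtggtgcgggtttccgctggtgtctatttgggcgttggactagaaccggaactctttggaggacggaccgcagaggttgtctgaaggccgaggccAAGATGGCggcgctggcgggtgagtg
Atp5e: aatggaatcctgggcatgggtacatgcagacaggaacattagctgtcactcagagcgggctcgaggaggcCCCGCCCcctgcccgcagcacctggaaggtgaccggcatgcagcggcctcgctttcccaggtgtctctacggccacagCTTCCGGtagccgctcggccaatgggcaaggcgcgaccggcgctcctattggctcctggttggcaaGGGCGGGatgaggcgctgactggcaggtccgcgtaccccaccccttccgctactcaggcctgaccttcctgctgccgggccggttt
Ndufb6: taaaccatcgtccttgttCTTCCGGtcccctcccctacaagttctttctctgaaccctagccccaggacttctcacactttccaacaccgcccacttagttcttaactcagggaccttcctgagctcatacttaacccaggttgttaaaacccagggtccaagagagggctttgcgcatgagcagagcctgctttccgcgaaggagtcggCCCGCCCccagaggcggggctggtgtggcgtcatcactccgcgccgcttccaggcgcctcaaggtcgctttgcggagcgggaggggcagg

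The 13 mitochondrially encoded members are 7 subunits of complex I, cytochrome b of complex III, 3 of complex IV and 2 of the ATP synthase. They are transcribed as long precursors and cut into mature RNAs, and mt-Atp8 and mt-Atp6 share an RNA, as do mt-Nd4l and mt-Nd4. At 0.5 µg/ml mt-Atp6 rose from 5704 and 5249 CPM in control to 7978 and 6378 CPM (log2 fold change 0.39, SE 0.10, adjusted p = 0.0054), with 7086 and 6167 CPM at 0.1 µg/ml. mt-Atp8 rose from 685 and 855 CPM to 1122 and 830 CPM (0.34, SE 0.13, adjusted p = 0.043), so that its second 0.5 µg/ml library lay within the control range. With all libraries kept, this call was lost with DESeq2 (adjusted p = 0.19), upper-quartile scaling (0.12), a fit of the 2 groups alone (0.052) and a replicate block (0.066). The 2 falls were mt-Nd5, from 3817 and 3336 CPM to 3252 and 3136 CPM (-0.16, SE 0.06, adjusted p = 0.030), and mt-Nd6, the one member encoded on the light strand, from 643 and 603 CPM to 569 and 520 CPM (-0.19, SE 0.05, adjusted p = 0.011). All 4 calls rested on single libraries: mt-Atp6 (0.062) and mt-Atp8 (0.52) were lost without the first 0.5 µg/ml library, mt-Atp8 also without the first control library (0.25) and the second 0.1 µg/ml library (0.061), and mt-Nd5 and mt-Nd6 were lost without the first control library (0.25 and 0.071) and without the second 0.5 µg/ml library (0.11 and 0.072).

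The other 9 did not pass at 0.5 µg/ml. Their log2 fold changes were 0.30 for mt-Co2, 0.15 for mt-Nd3 and for mt-Co3, 0.02 for mt-Nd4l, 0.01 for mt-Co1 and mt-Cytb, -0.02 for mt-Nd1, -0.10 for mt-Nd2 and -0.14 for mt-Nd4. mt-Co1, the catalytic subunit of complex IV and the member with most reads, stayed between 25159 and 27095 CPM over all 6 libraries. Without single libraries, 5 of the 9 passed: mt-Co2 (0.72) and mt-Nd4 (-0.27) without the second control library, mt-Nd2 (-0.25) and mt-Nd4 (-0.23) without the first 0.5 µg/ml library, mt-Co3 (0.26) without the second, and mt-Nd3 without the first control library (0.22) or the first 0.1 µg/ml library (0.15).

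Nuclear copies of mitochondrial DNA affect how these genes were counted. Reads from mt-Co2, mt-Atp6, mt-Co3 and mt-Nd4l can equally match unprocessed pseudogenes on chromosome 1 that are identical over nearly their whole length, and the estimated counts divide such reads between the 2. Of the summed counts of mt-Co2 and Gm28661, 99.5 to 99.7% were assigned to the copy, which leaves mt-Co2 at 43.9 to 86.7 CPM beside 25159 CPM or more for mt-Co1. For mt-Atp6 the copy Gm10925 took 31.8 to 45.8%, for mt-Co3 Gm28437 took 34.2 to 48.2%, and for mt-Nd4l Gm10222 took 37.8 to 51.6%. Gm29216, which matches part of mt-Co1, held 76.2 to 527 counts in the control and 0.1 µg/ml libraries and 7929 and 22953 at 0.5 µg/ml, at most 1.67% of the sum with mt-Co1. The first 60 bases of mt-Co2 (chrM:7013-7072, plus strand) and of Gm28661 (chr1:24615506-24615565, minus strand), on GRCm38 with GENCODE M21 names, are shown because reads from this stretch match both genes equally, with 0 mismatches.
mt-Co2: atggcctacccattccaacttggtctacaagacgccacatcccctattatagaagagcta
Gm28661: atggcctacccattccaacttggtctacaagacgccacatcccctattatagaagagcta

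With each copy's counts added to its gene, an analysis chosen after seeing the data, mt-Co2 measured 15082 and 13972 CPM in control, 16044 and 14948 CPM at 0.1 µg/ml and 16459 and 16121 CPM at 0.5 µg/ml. Its log2 fold change at 0.5 µg/ml was then 0.17 (SE 0.05, adjusted p = 0.0096). The rise of mt-Atp6 was smaller with its copy, 0.21 (SE 0.05, adjusted p = 0.0048), from 10232 and 9682 CPM to 11703 and 11385 CPM, and it also passed between the doses (0.15, adjusted p = 0.030). For mt-Co3 the value went to -0.01 (adjusted p = 0.87). In the summed counts the 0.5 µg/ml libraries of mt-Atp6 and mt-Co2 lay above all 4 others.

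**Figure D4:**
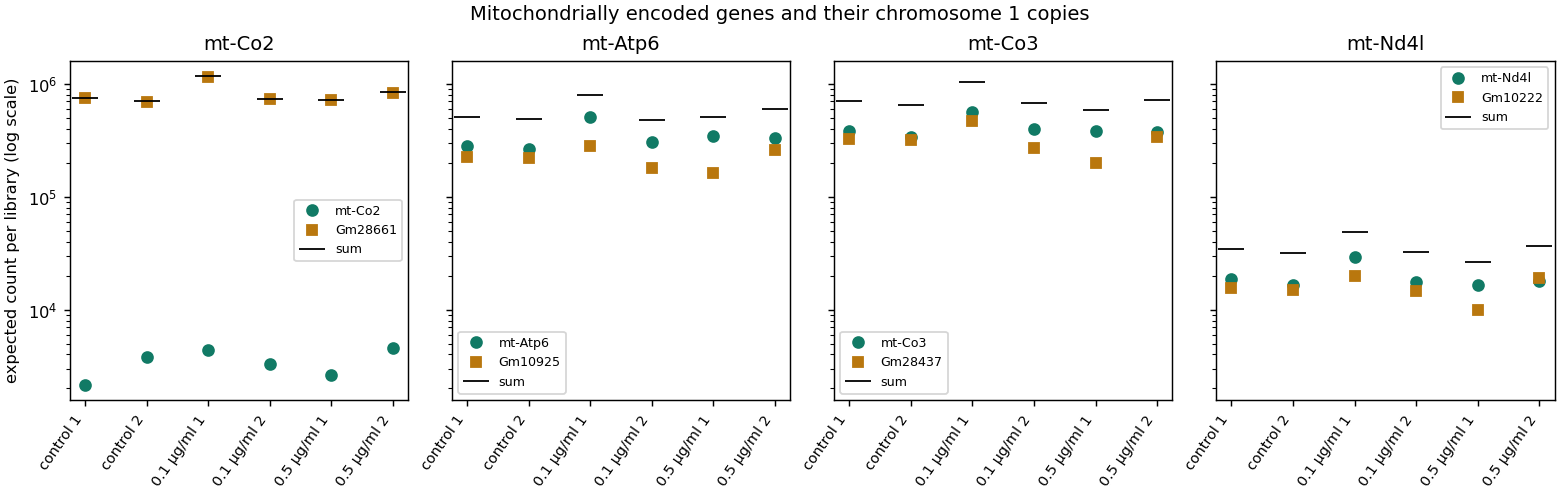
Expected counts per library on a log axis for 4 mitochondrially encoded genes (circles), their chromosome 1 copies (squares) and the sum (bars). For mt-Co2 nearly the whole sum sits in the copy, and for the other 3 genes the division between gene and copy differs among libraries of the same group.

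The summed level of each genome's members followed the same pattern as the single genes. The nuclear members together made up 3.37 and 3.38% of all TPM in control, 3.39 and 3.32% of it at 0.1 µg/ml, and 2.84 and 2.93% of it at 0.5 µg/ml. By complex, the sums in control and at 0.5 µg/ml were 1105 and 1152 against 847 and 885 TPM for the complex I core, 6019 and 6166 against 5126 and 5294 TPM for its accessory subunits, and 818 and 845 against 663 and 696 TPM for complex II. They were 4375 and 4272 against 3667 and 3840 TPM for complex III, 9217 and 9474 against 7760 and 8142 TPM for complex IV, and 12128 and 11903 against 10345 and 10431 TPM for complex V. In all 6 sums both 0.5 µg/ml libraries lay below both control libraries. An exact test of 2 against 2 libraries cannot go below p = 0.33, so these sums carry no test.

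The mitochondrially encoded members made up 17.2 and 16.4% of TPM in control, 17.8 and 17.3% of it at 0.1 µg/ml, and 20.2 and 16.3% of it at 0.5 µg/ml. Both 0.1 µg/ml libraries lay above both control libraries, by little, and the 0.5 µg/ml libraries lay on either side of both other groups. Much of the value of 20.2% came from mt-Atp8, which held 8.16% of TPM in that library and 5.43% in the other. A short gene has a small effective length in TPM, and 1 TPM of mt-Atp8 stood for 0.65 counts per library beside 58.0 for mt-Co1. Without mt-Atp8 the shares were 11.99 and 10.99%, 11.7 and 11.2%, and 12.01 and 10.8%. In expected counts, the mitochondrially encoded members with their copies gave 6.34 and 5.86 counts per nuclear-member count in control, 6.09 and 5.94 in the lower-dose group and 7.08 and 6.68 in the higher-dose group, so that ratio was highest in both 0.5 µg/ml libraries. The numerator did not rise as a share of all counts (10.6 and 9.91%, 10.3 and 9.82%, and 10.1 and 9.70%), and the nuclear members’ share was lowest in both 0.5 µg/ml libraries (1.67 and 1.69%, 1.70 and 1.65%, and 1.43 and 1.45%). These are shares of polyadenylated RNA, and fewer cells of a type and less RNA per cell cannot be told apart in bulk libraries.

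Genes around the chain were read against the same shares over all tested genes, 33.1% lower and 34.4% higher at 0.5 µg/ml and 13.8% lower and 20.8% higher at 0.1 µg/ml. Of 7 other chain parts, 4 fell and 2 rose at 0.5 µg/ml: Ndufab1, the acyl carrier protein of complex I, fell by 0.33 and Atpif1, the inhibitor of ATP synthase reversal, by 0.52, while cytochrome c (Cycs) rose by 0.20 and Higd1a by 0.27. The call of Cycs was lost without the first 0.5 µg/ml library (0.065) and with limma (0.077 to 0.13), and that of Higd1a without the second 0.5 µg/ml library (0.061) and with limma (0.11 to 0.19). Atpif1 measured 811 and 904 TPM in control, 751 and 729 TPM at 0.1 µg/ml and 526 and 594 TPM at 0.5 µg/ml. Among 15 tested complex I assembly factors 5 fell (33.3%, near the share over all genes) and 3 rose, and among 33 factors for complexes II to V 15 fell (45.5%) and 6 rose (18.2%). Acad9, which assembles complex I and also oxidises fatty acids, rose from 24.9 and 25.7 TPM in control to 32.2 and 31.3 TPM at 0.1 µg/ml and 54.3 and 56.6 TPM at 0.5 µg/ml (log2 fold change 1.19, SE 0.04, adjusted p = 1e-08). Bcs1l, which inserts the Rieske protein into complex III, fell from 16.8 and 17.9 TPM to 9.04 and 9.23 TPM (-0.84, adjusted p = 3.4e-06).

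Of 24 genes that maintain or express mitochondrial DNA, 12 fell and 3 rose at 0.5 µg/ml, where 33.1% of all tested genes fell, and 8 fell (33.3%, against 13.8%) and 1 rose at 0.1 µg/ml. Tfam, which packages mitochondrial DNA and starts its transcription, fell with dose: 61.1 and 52.7 TPM in control, 36.3 and 40.03 TPM at 0.1 µg/ml and 26.2 and 25.9 TPM at 0.5 µg/ml. Its log2 fold change was -0.36 at 0.1 µg/ml (SE 0.04, adjusted p = 0.00023), -0.92 at 0.5 µg/ml (SE 0.05, adjusted p = 8.4e-08) and -0.56 between the doses (adjusted p = 5.4e-06). The median of the mitochondrially encoded members was 0.01 at the same dose. Hsd17b10, part of mitochondrial RNase P, fell by 0.63 at 0.5 µg/ml. The 78 genes of the mitochondrial ribosome had 25 falls (32.1%, near the 33.1% over all genes) and 18 rises (23.1%, against 34.4%), with a median of -0.04.

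Of 12 regulators of mitochondrial biogenesis, 4 fell and 4 rose at 0.5 µg/ml, 33.3% each, near the 33.1% and 34.4% over all tested genes. The coactivator Ppargc1a fell from 2.51 and 2.89 TPM to 1.05 and 0.95 TPM (log2 fold change -1.47, SE 0.13, adjusted p = 6e-06) and the fatty acid receptor Ppara from 8.19 and 9.03 TPM to 3.22 and 2.63 TPM (-1.38, SE 0.13, adjusted p = 7.5e-06). Hif1a fell by 0.47 and Gabpa by 0.17, and the rises were small: 0.22 for Esrra, 0.21 for Nrf1, 0.20 for Yy1 and 0.17 for Ppard. The call of Ppard held in only 7 of 16 alternative analyses and was lost with DESeq2 (0.059), upper-quartile scaling (0.21) and limma (0.29 to 0.35), and without the second control library (0.15), the second 0.1 µg/ml library (0.053) or the first or second 0.5 µg/ml library (0.060 and 0.16). Of 17 citric acid cycle genes, 5 fell and 5 rose at 0.5 µg/ml, 29.4% each and near both shares over all tested genes. At 0.1 µg/ml 6 of them rose (35.3%, against 20.8%) and 0 fell (against 13.8%). Citrate synthase (Cs) rose by 0.22 and 0.42 at the 2 doses, the first call being lost with limma (0.080 to 0.098), and Suclg2 fell by 0.64 at 0.5 µg/ml. Of 7 other enzymes that feed electrons to ubiquinone, 4 rose (57.1%) and 2 fell (28.6%) at 0.5 µg/ml, among them the glycerol phosphate dehydrogenase Gpd2, which went from 23.9 and 22.0 TPM to 30.8 and 32.5 TPM and to 40.6 and 39.99 TPM (0.60, adjusted p = 4.3e-06, and 0.99, adjusted p = 2.1e-08), and Sqor, which rose by 0.29 and 0.58.

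**Figure D5:**
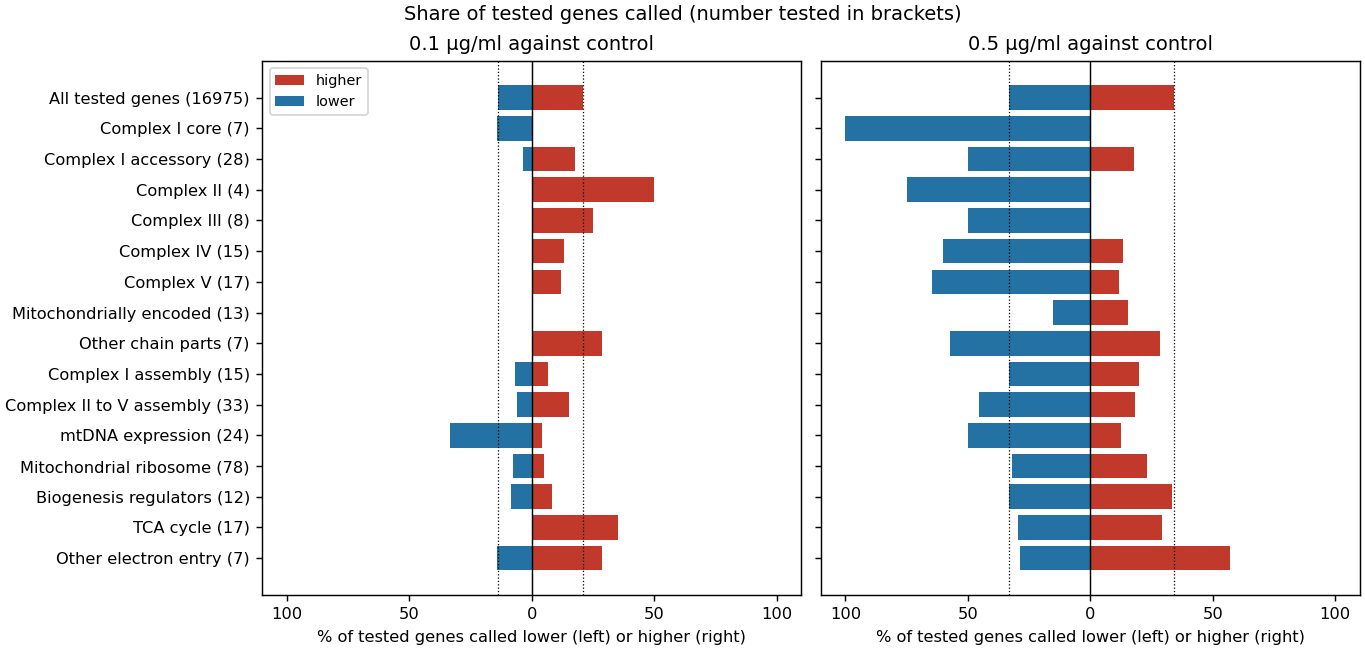
Bars give the percent of tested genes called higher (right, red) and lower (left, blue) for each complex and list, with the number tested in brackets and dotted lines at the share over all tested genes. At 0.5 µg/ml the nuclear complexes extend to the left of the 33.1% line and stay short of the 34.4% line on the right, and the mitochondrially encoded members are short on both sides.

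The summed markers of cells other than epithelium were higher at 0.5 µg/ml than in control, from levels far below the epithelial sum. The summed level of 10 epithelial markers was 3532 and 3535 TPM in control, 4064 and 4007 TPM at 0.1 µg/ml and 4750 and 4974 TPM at 0.5 µg/ml. The 9 fibroblast markers summed to 0.38 to 0.60 TPM in control, 0.81 to 0.85 TPM at 0.1 µg/ml and 2.25 to 2.86 TPM at 0.5 µg/ml, the 9 immune markers to 3.25 to 3.71, 5.59 to 6.33 and 14.7 to 14.8 TPM, and the 7 endothelial markers to 0.23 to 0.37, 0.63 to 0.65 and 1.26 to 1.41 TPM. The 9 muscle markers, relevant to the muscle isoforms Cox6a2 and Cox7a1, summed to 23.8 to 36.0, 33.5 to 42.7 and 60.3 to 71.4 TPM, and were highest in both 0.5 µg/ml libraries, where those isoforms were lowest. Defining markers Adgre1, Cdh5, Emcn, Cldn5, Myl1 and Myog were at 0 in every library, and the part of these cells in the results was not tested. Among the 10 epithelial markers 5 rose and 5 fell at 0.5 µg/ml, and their part was not tested either. Of 4 tested fibroblast markers 2 rose and 1 fell at this dose, and 2 of 2 tested endothelial markers rose. Of 3 tested immune and 3 tested muscle markers, 2 rose and 1 fell in each list. Over all tested genes 34.4% rose and 33.1% fell.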

How the data were processed

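Poly-A RNA of 6 organoid libraries, 2 in each of 3 groups, was read as paired ends from strand-specific MGI libraries, per the labels' protocols. Per the submitters' processing notes, RSEM 1.3.3, STAR 2.7.3a, Trim Galore and FastQC were used; GRCm39 and mm10 are both named without a role, so which build the tables use is unknown. The authors deposited RSEM expected counts, which divide reads shared between near-identical genes by estimate, and a second table of TPM, which carries no depth. The sources used here do not give whether reads were counted by strand. Of 55416 identifiers, 52083 matched a symbol in the GENCODE M21 table.

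Expected counts were rounded and filtered with filterByExpr by group (16975 genes), scaled by TMM (factors 0.964 to 1.04) and fitted for all 6 libraries with edgeR 4.0.16 quasi-likelihood in R 4.3.3, with a mean per group, no covariate and 3 residual degrees of freedom. Tests were two-sided with Benjamini-Hochberg adjustment at 0.05 over all tested genes and no fold threshold; the fit was tested on simulated data. SE, the standard error of the fitted log2 change, was taken from the F statistic. Members were assigned to complexes by their known place, and a nuclear or antisense copy was sought at 98% identity or more over at least 200 bases. The named genes are all mitochondrially encoded members, the 2 highest and 2 lowest changes per complex and comparison, all isoforms, untested members, the 2 smallest p per list and comparison, and all genes of counts of 5 or fewer; Ndufs3, Ndufv2, Atp5a1, Atp5b, Atp5c1, Atp5f1, Atp5h and Atp5j were named after their values were seen. Some genes are counted in their groups and are not reported here singly. The members and lists were chosen with earlier results of these data known. Alternatives were DESeq2 1.42.0, limma 3.58.1 on log2(TPM + 1) and log2(TPM + 0.1), upper-quartile scaling, other filters, a fit of 2 groups, a replicate block and leaving out each library.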

Additional observations from a re-analysis of the deposited data

How the results depend on the processing

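The fall of the nuclear members at 0.5 µg/ml kept its direction in every alternative: the median stayed 0.13 to 0.26 log2 units below that of all genes, and 39 to 60 members fell, of 78 to 80 tested. The median was -0.25 with upper-quartile scaling, which moved the median of all genes to -0.09, -0.26 with limma on TPM at each setting, and -0.19 to -0.16 without single libraries. Rises at 0.5 µg/ml numbered 4, 4 and 5 with limma (pseudocounts 1 and 0.1, and no filter). Between the doses the nuclear median was -0.16 with DESeq2, -0.24 with upper-quartile scaling, -0.25 with limma and -0.22 to -0.16 without single libraries, and limma gave 2, 2 and 3 rises. At 0.1 µg/ml nuclear rises numbered 8 with DESeq2, 6 with upper-quartile scaling, 3, 2 and 3 with limma, 8 with the 2 groups alone and 3 to 9 without single libraries, falls 0 with limma and 1 to 3 without single libraries, and the median was -0.0058 with upper-quartile scaling, -0.0022 with limma and -0.0097 to 0.035 without single libraries. The cause of these shifts was not tested. Upper-quartile scaling also moved the higher calls at 0.1 µg/ml from 60.04 to 50.4% of the genes called.

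Mitochondrially encoded rises at 0.5 µg/ml numbered 1 with upper-quartile scaling, 5 when every gene with a count was kept, 0 with limma, 1 with the 2 groups alone and 0 to 3 without single libraries; falls numbered 4 with every gene kept and 0 to 4 without single libraries, and the median was -0.085 with limma and -0.093 to 0.060 without single libraries. At 0.1 µg/ml there were 3 rises and 2 falls with every gene kept, 1 rise with the 2 groups alone, and 0 to 1 rises and 0 to 3 falls without single libraries. Between the doses there were 4 rises and 1 fall with every gene kept, 1 fall with upper-quartile scaling, 1 rise with copies summed, 0 to 1 of each without single libraries, and medians of -0.078 to 0.11. The log2 ratio of their TPM share at 0.5 µg/ml to control was 0.12, or 0.35 over the nuclear members, -0.056 in expected counts, -0.050 with copies and -0.046 to 0.27 without single libraries. Between the doses it was 0.05, or 0.27 over the nuclear members, 0.21 so without mt-Atp8, 0.19 in counts with copies over the nuclear members and -0.11 to 0.20 without single libraries.

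Same-numbered libraries did not deviate together (correlations of same-numbered deviations -0.04, 0.08 and 0.01). No label says whether they share an animal or culture, so these values cannot show that the samples are unpaired. A replicate block gave 8 nuclear rises and 44 falls at 0.5 µg/ml, 10 and 2 at 0.1 µg/ml and 5 and 56 between the doses, and for the mitochondrially encoded members 3 and 2, 1 and 1, and 1 and 0. Of 4218 alternatives for single genes, 3827 gave the same call or again none, 282 lost the call and 106 gained it. Direction was compared only where the main or the alternative result passed the test. Of these, 3 reversed, Ndufs4 at 0.5 µg/ml with limma (-0.026 at each setting). Calls named in the report that limma on TPM ended at 1 or more settings also include those of Ndufb11 and Ndufs5 at 0.1 µg/ml, Ndufs5, Ndufv1, mt-Atp6 and mt-Atp8 at 0.5 µg/ml, and, with no filter, Ndufs1 and Uqcrq. Counts were lowest for Cox6a2 and the untested members. The second Atp5o identifier at 0 shares sequence with Donson, to which all 801 to 1521 joint reads were assigned.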

Other observations

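Other genes belong to the same complexes under other symbols in the gene table used, and were therefore not members. Ndufb1-ps, which RefSeq names Ndufb1 and which encodes an accessory subunit of complex I, measured 157 and 165 TPM in control, 168 and 172 TPM at 0.1 µg/ml and 139 and 142 TPM at 0.5 µg/ml, and fell by 0.11 on the log2 scale at 0.5 µg/ml (SE 0.04, adjusted p = 0.045). Usmg5, which RefSeq names Atp5md and which encodes a small membrane subunit of the ATP synthase, measured 587 and 612, 653 and 622, and 529 and 576 TPM and did not pass against control at 0.5 µg/ml (-0.05, adjusted p = 0.46). From 0.1 to 0.5 µg/ml both fell, by 0.22 and 0.18.

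Some genes around the chain had calls of opposite direction at the 2 doses. Cox20, which guides mt-Co2 into complex IV, rose at 0.1 µg/ml (log2 fold change 0.24, adjusted p = 0.025) and fell at 0.5 µg/ml (-0.48, adjusted p = 0.0002), with a direct difference of -0.72 (adjusted p = 1.7e-05). Its 0.1 µg/ml call held in only 6 of 16 alternative analyses: it was lost with DESeq2 (0.058), upper-quartile scaling (0.055) and limma (0.14 to 0.24), without the first control library (0.22), without either 0.1 µg/ml library (0.060 and 0.16) and without either 0.5 µg/ml library (0.055 each), while the other 2 calls held in all 16. Prodh, proline dehydrogenase, did the opposite, with -0.45 (adjusted p = 0.0074), 0.37 (adjusted p = 0.0082) and 0.82 (adjusted p = 7.9e-05), and its call at 0.5 µg/ml was lost without the first control library (0.056) and without the second 0.5 µg/ml library (0.13), and with limma (0.096 to 0.20). The copper chaperone Cox17 rose at both doses, by 0.26 (a call lost without the first 0.1 µg/ml library at 0.086, and with limma at 0.080 to 0.13) and 0.38, and Coa3 and Atpaf1, assembly factors of complex IV and of the ATP synthase, fell at 0.5 µg/ml by 0.50 and 0.60.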
